A study of Homo sapiens with 4 samples.

Results

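A set of 2147 distal regions of open chromatin, of 164301 merged regions in all, ranked lower after I-BET151 than after DMSO in every pair of 1 DMSO and 1 I-BET151 library. The peaks of the 4 lists were merged where they overlapped by at least 1 bp, and 25627 regions (15.6%) were called in all 4 lists. In each list, these shared regions were ranked by the highest fold enrichment of their peaks, expressed as a percentile from 0 to 100. A region was a member where its lower DMSO percentile exceeded its higher I-BET151 percentile by at least 10 points and where it lay over 3 kb from the start of every protein-coding gene. Of the 16287 shared distal regions, 2147 were members, which is 13.2%. Among all shared regions, including those near gene starts, 3526 (13.8%) fell by the same margin. The members were chosen by their fold enrichment in these 4 libraries, so their percentiles are given as a description with no test. A region without a peak in 1 of the lists could not be a member, so regions lost altogether in a treated library are not described here.

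The cells were pancreatic progenitors differentiated from MEL1, an established human embryonic stem cell line. The labels give MEL1 alone, and the study's methods name its MEL1 cells as the INS GFP/W line, which carries GFP at the insulin gene. All 4 cultures were kept for 7 days in EF6 medium, which is DMEM with B27, EGF, bFGF and the TGF-β inhibitor 616452. The control group received DMSO, and the treated group received 1 μM I-BET151 (EF6I medium), an inhibitor of the bromodomains of BET proteins. Each group had 2 libraries, each from 50000 cells of the 1 cell line, and the labels do not say whether replicates came from separate differentiations. The reads behind the lists, estimated from their genome-wide background, came to 38.7 and 36.6 M (M, 1000000 reads) in DMSO replicates 1 and 2 and to 12.5 and 16.0 M in I-BET151 replicates 1 and 2. The lists held between 38295 (DMSO replicate 2) and 111324 (I-BET151 replicate 2) peaks. Depth and treatment therefore moved together, and their parts in any difference cannot be told apart. Of 9 promoters of pancreatic progenitor factors, 6 were called in all 4 lists, NKX6-1, SOX9, FOXA2, GATA6 and MNX1 among them, and that of PTF1A was called in none. The promoter of PDX1, a defining factor of these cells, had no peak in either DMSO list but had 1 in each I-BET151 list, and that of ONECUT1 was missing from DMSO replicate 2 alone. The promoters of POU5F1, NANOG and PRDM14, which mark pluripotent cells, were called in none, whereas that of LIN28A was called in all 4 and that of DPPA4 in 1. Promoters called in all 4 lists also included 3 of 6 of liver and gut (APOA1, CDX2 and VIL1), 2 of 6 of mesenchyme (TWIST1 and VIM) and 1 of 5 of neural cells (TUBB3), while none of 7 endocrine and none of 5 endothelial and blood promoters was called in all 4. In such bulk libraries, a change in how many cells hold a region open cannot be told apart from a change in how open it is in each cell.

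ATAC-seq uses the Tn5 transposase to place sequencing adapters into accessible DNA, so a peak marks a stretch that nucleosomes leave open. Distal open regions include enhancers, where transcription factors bind and recruit co-activators that acetylate histones, and sites bound by CTCF, which anchors chromatin loops. BET proteins bind acetylated lysines on histones at enhancers and promoters and help RNA polymerase leave its pause, and I-BET151 competes for that binding. In pancreatic progenitors, factors of the GATA, FOXA, HNF, ONECUT and TEAD families are known to bind many distal elements.

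The sequences of several members are printed here because the groups of members differed from other distal regions mainly in base composition and in a few short motifs. Each runs from 50 bp before to 50 bp after the summit of the highest peak, on the plus strand of hg38. Members in UTRs, members with a second placement in the genome and those of 1 autosome were not considered for printing. The first 3 are among the members with the largest gaps between the lower DMSO and the higher I-BET151 percentile that held AGATAA, the core recognised by GATA factors, on either strand within that window. The nearest gene by its start names each one, and capitals mark the motif.
SEMA6A (chr5:116544679-116544779, intron of SEMA6A, gap 67.5): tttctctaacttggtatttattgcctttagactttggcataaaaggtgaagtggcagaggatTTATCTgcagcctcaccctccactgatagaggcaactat
HIBCH (chr2:190353098-190353198, intron of INPP1, gap 51.1): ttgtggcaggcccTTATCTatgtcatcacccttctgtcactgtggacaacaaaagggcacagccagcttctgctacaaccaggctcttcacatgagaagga
QRFPR (chr4:121305054-121305154, intergenic, gap 49.1): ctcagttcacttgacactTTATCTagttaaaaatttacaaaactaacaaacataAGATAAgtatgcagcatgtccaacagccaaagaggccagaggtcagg

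The next pair of members held the CTCF consensus, which was rarer in members than in the other shared distal regions, and the pair after it held CAAAGTCCA, a site of the nuclear receptors HNF4A and HNF4G. The last pair held CAAGGTCA, a site of NR5A receptors. Each pair again holds the largest gaps of its kind.
RNF114 (chr20:49928775-49928875, intergenic, CTCF, gap 55): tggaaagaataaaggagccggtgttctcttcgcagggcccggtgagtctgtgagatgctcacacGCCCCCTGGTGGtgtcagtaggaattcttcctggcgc
APOL3 (chr22:36180466-36180566, intergenic, CTCF, gap 36.0): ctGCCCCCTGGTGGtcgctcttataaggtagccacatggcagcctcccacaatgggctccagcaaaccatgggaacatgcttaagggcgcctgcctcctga
TGFBR2 (chr3:30171009-30171109, intergenic, HNF4, gap 40.1): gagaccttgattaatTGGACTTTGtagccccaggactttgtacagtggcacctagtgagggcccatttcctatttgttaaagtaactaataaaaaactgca
NUP35 (chr2:183541811-183541911, intergenic, HNF4, gap 39.0): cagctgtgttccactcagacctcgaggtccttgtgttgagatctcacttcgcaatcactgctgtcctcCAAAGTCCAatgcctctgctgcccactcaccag
ANKRD7 (chr7:118872772-118872872, intergenic, NR5A, gap 37.1): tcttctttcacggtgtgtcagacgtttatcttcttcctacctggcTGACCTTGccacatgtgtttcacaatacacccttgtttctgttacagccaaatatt
RAPGEF5 (chr7:22346579-22346679, intron of RAPGEF5, NR5A, gap 34.9): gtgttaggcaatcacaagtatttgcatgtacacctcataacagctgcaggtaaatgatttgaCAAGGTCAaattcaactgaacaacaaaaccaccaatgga

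Across the members, the median percentile was 64.0 in DMSO replicate 1 and 60.3 in DMSO replicate 2, against 21.2 in I-BET151 replicate 1 and 26.1 in I-BET151 replicate 2. The other 14140 shared distal regions had medians of 42.9, 39.9, 46.2 and 52.4 in the same order. The gap of the members had a median of 19.4 points and ran from 10.0 to 87.0, with quartiles of 13.8 and 27.5. Members were thus regions of above-median rank in DMSO more often than not, and 1182 of them came from the class of shared distal regions with the highest mean DMSO percentile, 803 from the middle class and 162 from the lowest class. The rule itself favours high DMSO ranks, since a region must start at least 10 points above 0.

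A fall in rank was seldom a fall in reads once these were scaled to depth. Every member needed a peak in both I-BET151 lists, which had fewer reads. The part of that need in the scaled values was not tested. The pileup, the number of reads stacked at the summit, had a median over members of 29 reads in DMSO replicate 1, 25 reads in DMSO replicate 2, 16 reads in I-BET151 replicate 1 and 41 reads in I-BET151 replicate 2. Per M reads, these medians were 0.749, 0.683, 1.28 and 2.56. Per M reads, both I-BET151 pileups exceeded both DMSO pileups for 1904 members (88.7%), where 96.1% of all shared distal regions showed that order. Both lay below both DMSO pileups for 16 members (0.745%), against 0.111% of all shared distal regions. The estimate of reads per library scales these values, and the rank does not use that estimate, although fold enrichment itself depends on depth. Within same-numbered pairs, the median log2 difference in pileup per M reads, I-BET151 minus DMSO, was 0.84 for members against 1.46 for the other shared distal regions in replicate 1, and 1.89 against 2.24 in replicate 2. For log2 fold enrichment, the same medians were 0.07 against 0.69 and 0.64 against 1.18. In the first pair, fold enrichment was lower with I-BET151 in 41.3% of members, and in the second pair in 4.56%. The rule acts on fold enrichment and favours this order of medians between members and other regions, so the medians describe the choice only.

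Other measures from the same lists gave the members a like order less often. By the percentile of −log10 p, both DMSO libraries lay above both I-BET151 libraries in 1950 members (90.8%), against 26.6% of all shared distal regions. By the percentile of pileup alone, which leaves out the local background, this held for 1428 members (66.5%), against 28.2%, and 91 members (4.24%) showed the opposite order, against 26.5% of all shared distal regions. These measures come from the libraries that chose the members, so they describe the choice and do not support it. The local background per M reads under the members had also risen, with median log2 differences of 0.52 and 1.20 in pairs 1 and 2, against 0.38 and 0.93 under the other shared distal regions, and its part in the fall in rank was not tested.

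Regions chosen by their fall in 1 pair of libraries were also read in the other pair, which did not choose them. Of 6228 shared distal regions that fell by at least 10 points from DMSO replicate 1 to I-BET151 replicate 1, 41.8% also fell by at least 10 points in the pair of replicates 2, where 26.7% of all shared distal regions did so. Of 4352 regions that fell in the pair of replicates 2, 59.8% fell in the pair of replicates 1, against 38.2%. With the pairs crossed, 59.5% of 5149 regions fell in DMSO replicate 2 with I-BET151 replicate 1, against 33.8%. In the remaining arrangement, 55.5% of 5513 regions fell in DMSO replicate 1 with I-BET151 replicate 2, against 31.6%. The share of chosen regions that rose by at least 10 points in the pair read lay between 11.4% and 24.7%, against 32.4% to 38.0% of all shared distal regions. Falls were therefore more frequent among chosen regions than among all shared distal regions in both pairings of the libraries. The 2 directions of a pairing rest on 1 joint count, 2604 regions for same-numbered pairs and 3062 for crossed pairs. They are thus not separate readings. In the first arrangement fewer than 1 in 2 chosen regions fell again. A fall in 1 pair favours high DMSO ranks, and the 2 DMSO lists ranked alike (Spearman's rho 0.82). Between a DMSO and an I-BET151 list, rho lay between 0.43 and 0.61. The regions compared were not matched for DMSO rank, so how much of the excess follows from the choice was not tested. Each pair read is a single library of either group, so no test across samples can be made on these shares.

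The largest gap of all, 87.0 points, belonged to a region 54.9 kb upstream of the olfactory receptor gene OR4F5. Its percentiles were 99.8 and 99.9 in DMSO replicates 1 and 2 and 12.8 and 10.9 in I-BET151 replicates 1 and 2, on pileups of 49, 117, 9 and 15 reads.

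This member stood for a small class with repeated sequence or an uneven DMSO group. The summit with 100 bp on either side had a further near-identical place in hg38 (at least 95% identity over at least 90% of its length), or could not be placed, for 32 members (1.49%), against 38 (0.269%) of the other shared distal regions. In 51 members (2.38%), the pileup in DMSO replicate 2 was at least 2 times that in DMSO replicate 1, although replicate 2 had slightly fewer reads, and 58 (0.410%) of the other shared distal regions showed this. The 51 members had median pileups of 42 and 139 reads in DMSO replicates 1 and 2 and of 16 and 25 reads in I-BET151 replicates 1 and 2. They were wide, with a median of 2007 bp against 757 bp for all members, and 24 of them were among the 32 repeated ones. Both features were chosen after their values were seen. Together they covered 59 members, of which 26 had a gap of at least 40 points, out of 161 members with such a gap. Of the 16 members with lower I-BET151 pileups per M reads, 9 belonged to these 59. Short reads from repeated sequence cannot be assigned to 1 place, and the part of this in the ranks was not tested. The remaining 2088 members had median pileups of 29, 25, 16 and 41 reads and a median gap of 19.1 points.

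Among these remaining members, the largest gaps were found near genes of varied function. A region 43.0 kb upstream of RFLNB, which encodes a filamin-binding protein, stood at percentiles of 86.3 and 97.8 in DMSO replicates 1 and 2 and at 5.83 and 0.195 in I-BET151 replicates 1 and 2 (chr17:488931-490059). Its pileups of 35, 52, 11 and 11 reads made it 1 of the 16 members that were lower per M reads. A region in an intron of RPTOR, a subunit of the mTORC1 kinase complex, stood at 84.8 and 97.7 against 11.8 and 2.44 and was also 1 of these 16 (chr17:80743802-80744920, pileups of 57, 86, 10 and 11 reads). In both regions DMSO replicate 2 stood above DMSO replicate 1, and both stood far above the I-BET151 libraries.

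The region in an intron of RAPGEF2, an exchange factor for the small GTPase RAP1, had a low rank with I-BET151 while its pileup per M reads was not lower. Its percentiles were 86.1 and 83.4 in DMSO and 5.90 and 11.0 in I-BET151, on pileups of 29, 28, 14 and 44 reads (chr4:159227681-159228438). The region in an intron of SEMA6A, a transmembrane semaphorin whose sequence is printed above, stood at 82.6 and 78.9 against 11.3 and 10.3, on pileups of 47, 39, 20 and 65 reads. A region in an intron of GALNT1, an enzyme that starts mucin-type O-glycosylation, stood at 78.5 and 64.5 against 1.37 and 0.855, on pileups of 26, 21, 11 and 25 reads (chr18:35634144-35634686). In these 3 regions I-BET151 replicate 2, with 16.0 M reads, held more reads at the summit than DMSO replicate 2, with 36.6 M, whereas I-BET151 replicate 1, with 12.5 M reads, held fewer than either DMSO library. Further members with large gaps lay near HGH1 (77.5 points), ZNG1F (68.5), TMTC2 (67.5), ATP9B (64.7), ZCCHC13 (62.8), GK2 (62.6) and GRM3 (61.9). The list of the 12 largest gaps before the repeated members were set aside also held regions nearest to RPIA (71.9 points, 15 further places in the genome), CWH43 (69.4 points, 1 further place) and NPIPB5 (69.1 points, 42 further places).

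**Figure D1:**
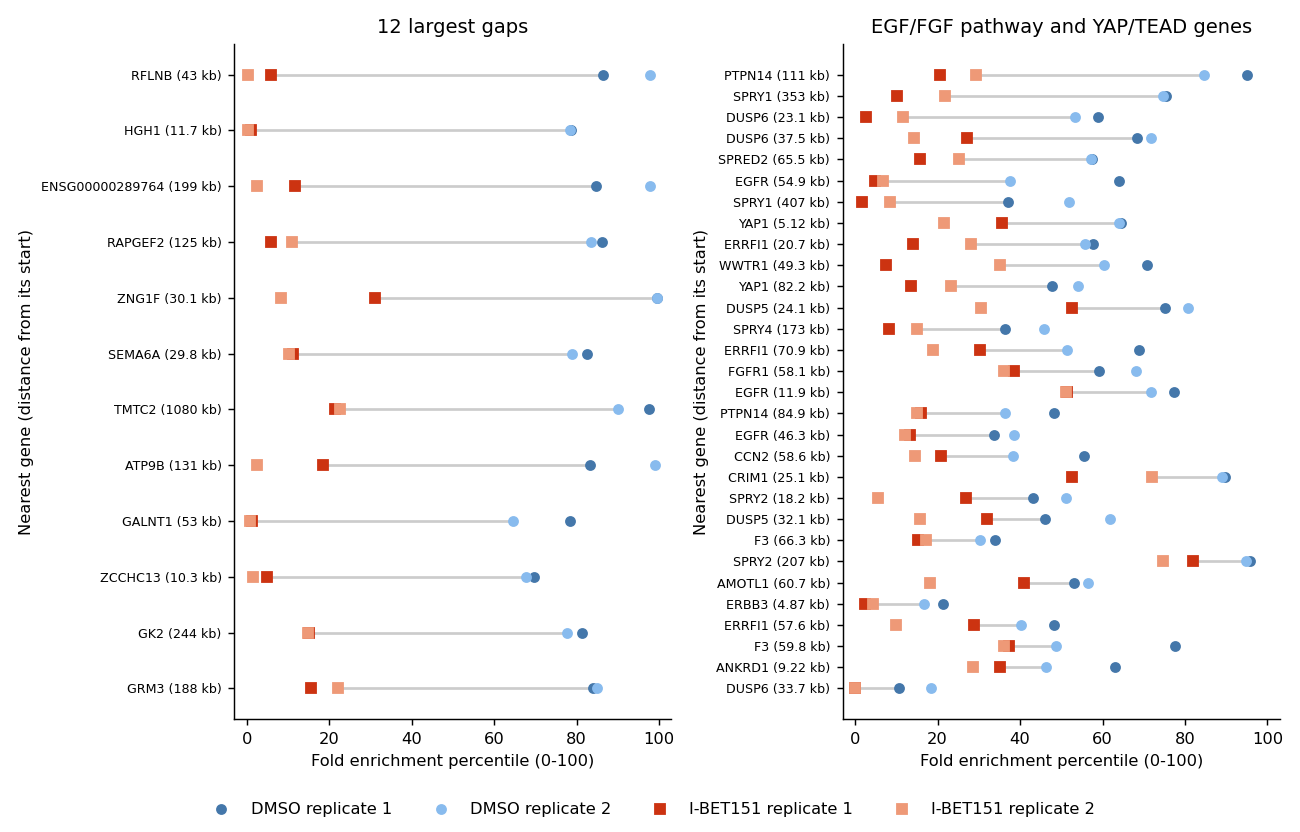
Fold enrichment percentile (0 to 100) of single members in the 4 libraries, with circles for DMSO, squares for I-BET151 and a grey line over the gap; labels give the nearest gene and the distance from its start. Left, the 12 largest gaps outside the repeated or uneven class; right, all 30 members nearest to genes of the EGF and FGF pathway and YAP and TEAD lists, whose gaps are mostly smaller.

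At the threshold, the 3 members just inside had a gap of 10.0 points and lay nearest to FHL2, XYLT1 and MAGI1. Their percentiles were 88.8, 72.5, 54.5 and 62.5 for FHL2, 59.3, 67.8, 20.3 and 49.3 for XYLT1 and 23.6, 23.9, 13.6 and 12.9 for MAGI1, in the order DMSO replicates 1 and 2, I-BET151 replicates 1 and 2. The 3 regions just outside lay nearest to NXN, NT5E and N4BP1, with gaps of 10.0 (below 10 before rounding), 9.99 and 9.99 points. On both sides of the threshold, the levels thus ran from low to high percentiles, with gaps that hardly differed.

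The members spread over 1699 of the 7549 genes nearest to a shared distal region, and 1372 genes had a single member. The genes with the most members were picked from all of these by their counts, and no count per gene was tested. GLIS3, a zinc finger factor needed for the development and function of pancreatic β cells, was nearest to the most members, with 6 of its 10 shared distal regions falling and none rising by the mirrored rule. All 6 lay in its introns between 50.1 and 333 kb from its start. The 2 with the largest gaps stood at 91.8 and 71.1 against 16.4 and 33.0 (chr9:4026909-4027372) and at 64.3 and 51 against 6.47 and 13.0 (chr9:4137085-4138274), DMSO replicates 1 and 2 against I-BET151 replicates 1 and 2. The other 4 had gaps from 11.6 to 22.2 points. Over the 6 regions, pileups ran from 23 to 43 reads in DMSO replicate 1, from 19 to 49 in DMSO replicate 2, from 13 to 59 in I-BET151 replicate 1 and from 27 to 107 in I-BET151 replicate 2. Against DMSO replicate 1, the pileup was higher in I-BET151 replicate 2 in all 6 and lower in I-BET151 replicate 1 in 4 of the 6. These counts are not scaled to depth, which was 38.7 M reads in DMSO replicate 1 and 12.5 M in I-BET151 replicate 1. None of the 6 was among the 16 members that were lower per M reads.

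EPCAM, an adhesion molecule of epithelial cells, had 4 members among 5 shared distal regions, all within 86.7 kb. The member 15.1 kb inside the gene stood at 86.0 and 81.4 in DMSO and 27.7 and 36.1 in I-BET151 (chr2:47360248-47361364, pileups of 40, 32, 12 and 48 reads). The member 34.4 kb upstream stood at 69.2 and 68.9 against 26.0 and 20.4 (chr2:47309655-47310735). The other 2 had small gaps of 13.0 and 10.5 points. DST, which encodes a linker between keratin filaments, actin and hemidesmosomes, had 5 members among 7 shared distal regions, all in its introns and within 168 kb, with gaps from 10.4 to 28.5 points. The DMSO replicates disagreed at several of them, as in the region at percentiles of 72.2 and 35.8 in DMSO and 9.47 and 25.4 in I-BET151 (chr6:56683981-56684901).

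TCF7L2, a transcription factor of the Wnt pathway, had 5 members among 19 shared distal regions, with 3 others rising. NRIP1, a co-repressor of nuclear receptors, had 5 of 12, and its largest gap, 41.6 points, lay 122 kb downstream of its start (64.6 and 64.0 against 10.4 and 22.3). PDE3A, a phosphodiesterase of cyclic nucleotides, had 5 of 10, 3 of them within 25.9 kb. CTNNA2, which encodes αN-catenin, had 4 of 9, and DAOA had 4 of 12. WSB1 and DEFB115 complete the 10 genes with the most members, with 5 of 10 and 4 of 6. All of their 9 members had at least 2 times as many reads at the summit in DMSO replicate 2 as in DMSO replicate 1, as in the region 412 kb upstream of WSB1 with pileups of 121, 503, 59 and 57 reads.

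In all, 437 members (20.4%) had another member within 50 kb. Of all shared distal regions, 58.1% had another shared distal region within that distance, a share that cannot be compared with the first since the regions are denser. Members clustered most at DST (5 of the 7 shared distal regions across the cluster), EPCAM (4 of 5) and the SLC25A3 and TMPO locus (4 of 5). Clusters of 3 included those at DUSP6 (3 of 4, over 15.9 kb), EGFR (3 of 4, over 43.5 kb), GALNT1 (3 of 3, over 19.2 kb), ZNF608 (3 of 4), THRB (3 of 3) and KLF9 (3 of 3).

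Gene lists were assigned by the nearest protein-coding start, and members of each list are set beside the 13.2% of all shared distal regions. EF6 medium contains EGF and bFGF. Genes of the EGF and FGF pathway had 19 members among 86 shared distal regions (22.1%), while 15 (17.4%) rose by the mirrored rule, where 16.0% of all shared distal regions rose. The members lay near 10 of the 21 genes of the list, both receptors and feedback inhibitors. All 3 members of EGFR, the receptor of EGF, lay in its introns, with percentiles of 77.3 and 71.8 against 51.4 and 51.2 (chr7:55030930-55031641), 33.6 and 38.5 against 13.3 and 12 (chr7:55065324-55066197), and 64.1 and 37.6 against 4.78 and 6.77 (chr7:55073892-55074379). Its 5 other shared distal regions were not members, and none rose.

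The feedback inhibitors of the pathway had gaps from 10.7 to 52.8 points. DUSP6, a phosphatase that removes phosphate from ERK kinases, had 3 members among 10 shared distal regions, and 1 rose. The 3 members lay in a lncRNA gene upstream of it. The member 23.1 kb away stood at 59.0 and 53.4 in DMSO and 2.70 and 11.6 in I-BET151 (chr12:89375633-89376186, pileups of 44, 37, 19 and 65 reads). The member 37.5 kb away stood at 68.3 and 71.8 against 27.1 and 14.3 (chr12:89389953-89391523), and the member between them at 10.7 and 18.3 against 0.0156 and 0.0234. SPRY1, an inhibitor of signalling from receptor kinases, had 2 members of 17 shared distal regions, and 2 rose. The first member stood at 75.3 and 74.7 against 10.1 and 21.9 (chr4:123750050-123750734). ERRFI1, an inhibitor of EGFR, had 3 of 6, and DUSP5 2 of 4, while SPRY2 (2 of 12), SPRY4 (1 of 4) and SPRED2 (1 of 5) had fewer. Regions also rose at SPRY2 (2), ERRFI1 (1), DUSP5 (1) and SPRED2 (1). The single shared distal regions of ERBB3 and of FGFR1, both receptor kinases, were members with gaps of 12.3 and 20.5 points.

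The YAP and TEAD list held targets and also YAP1, WWTR1 and TEAD4 themselves. It had 11 members among 45 shared distal regions (24.4%), and 7 (15.6%) rose. The drop from mean DMSO to mean I-BET151 percentile had a median of −0.0946 points over the list, against 0.0195 over all shared distal regions. The largest gap was in an intron of PTPN14, a phosphatase that binds YAP, at 95 and 84.7 in DMSO and 20.5 and 29.2 in I-BET151 (chr1:214439411-214441245, pileups of 36, 33, 23 and 62 reads). YAP1 had 2 members among 3 shared distal regions, with gaps of 28.3 and 24.6 points, and WWTR1, which encodes the YAP paralogue TAZ, had 1 of 3 with a gap of 25.1 points. CCN2 had 1 member among 3 shared distal regions, ANKRD1 1 of 2, AMOTL1 1 of 4 and CRIM1 1 of 7. F3 and PTPN14 had 2 of 4 each. The CCN2 member lay in a UTR of ENPP1, 58.6 kb from the CCN2 start. The motif of TEAD factors, GGAATG, occurred in 17.4% of all members and in 16.8% of the other shared distal regions.

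Genes of the NF-kB pathway and cytokines had 5 members among 17 shared distal regions (29.4%), a small number. NFKBIA, the inhibitor that NF-kB itself induces, had 1 member among 4 shared distal regions. This member stood at 85.5 and 67.1 in DMSO and 2.99 and 23.2 in I-BET151 (chr14:35390833-35391602, pileups of 38, 29, 9 and 24 reads). The others had IL6 (2), NFKBIZ and TNFAIP3 as nearest genes, with gaps from 10.3 to 20.5 points. Both members assigned to IL6 lay in introns of STEAP1B, 148 and 180 kb upstream of the IL6 start. Genes of epithelial adhesion and keratins had 10 of 56 (17.9%), 4 of them the members of EPCAM. The member near DSG2, a desmosomal cadherin, stood at 60.1 and 58.0 against 1.48 and 4.86 (chr18:31513483-31514029).

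Genes of the TGF-β pathway, whose receptor kinase was inhibited in both groups, had 11 members among 97 shared distal regions (11.3%). TGFBR2, the type II receptor, had 4 of 7, the first of which stood at 81.2 and 66.5 in DMSO and 0.178 and 26.4 in I-BET151, so that the I-BET151 replicates lay far apart. The others had TGIF1 (3 of 18), SMAD3 (2 of 5), TGFBR3 and BMP2 as nearest genes. The TGIF1 members 115 and 405 kb from its start lay in introns of DLGAP1. The Notch pathway had 5 of 38 (13.2%), and 3 (7.89%) rose. Its members were 3 of 7 regions near HES1, a repressor that Notch induces, 1 of 6 near RBPJ and 1 of 7 near MAML3. Immediate early and growth genes had 7 of 51 (13.7%), and 12 (23.5%) rose. The widest gap of that list, 42.9 points, was in a lncRNA gene 821 kb downstream of the start of MYC. This region, the only member among 7 shared distal regions nearest to MYC, stood at 86.1 and 63.9 against 21 and 13.7. Its pileups were 42, 31, 20 and 51 reads. Mesenchymal genes had 5 of 40 (12.5%), actin cytoskeleton genes 4 of 37 (10.8%) and the AP-1 family 2 of 22 (9.09%).

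Lists of pancreatic and gut identity had smaller shares of members than the 13.2% of all shared distal regions. So did the TGF-β, mesenchymal, actin and AP-1 lists. The drop from mean DMSO to mean I-BET151 percentile had a median of 1.14 points over progenitor factors, against 0.0195 over all shared distal regions. That median was −12.9 points for endocrine genes and −4.85 points for liver and gut genes. Pancreatic progenitor factors had 5 members among 73 shared distal regions (6.85%), and 11 (15.1%) rose. The 5 lay near FOXA2, GATA6, NKX6-1, SOX9 and TEAD1, and the widest gap was 22.2 points, 167 kb upstream of GATA6 (51.5 and 72.1 against 23.6 and 29.3). The member near NKX6-1, 249 kb downstream of its start, stood at 61.8 and 65.0 in DMSO but at 7.40 and 48.9 in I-BET151. Endocrine genes had 1 of 25 (4.00%), and 8 (32.0%) rose. The member was assigned to RFX3 but lay in an intron of GLIS3, 377 kb from the RFX3 start. Liver and gut genes had 2 of 25 (8.0%), near CDX2 and HNF4G, and 7 (28.0%) rose. The region 4.20 kb upstream of HNF4G had a large gap for these lists, 46.2 points, at 67.4 and 77.2 against 21.2 and 20.4, on pileups of 46, 52, 49 and 119 reads. Counts of a few regions per list carry wide counting errors, the 13 lists overlap in function, and no list was tested.

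The members did not differ from the other shared distal regions in where they lay by more than a few points. Their summits were in introns in 44.6% (95% Wilson interval 42.5 to 46.7%) against 45%, intergenic in 34.3% against 33.4%, in lncRNA genes in 15.3% against 14.5% and in UTRs in 4.19% against 4.94%. The nearest gene was also the gene around the summit for 714 of the 958 intronic members. The median distance to the nearest gene start was 61.3 kb for members, 54.7 kb for the other shared distal regions and 49.8 kb for the 2614 rising ones, and 56.1% of members lay over 50 kb away, against 52.4% and 49.8%. A lncRNA start lay within 1 kb of 6.61% of members and 6.96% of the others. Their merged width had a median of 757 bp against 721 bp. The intervals cover counting error only and treat regions as independent, which neighbouring regions are not.

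Base composition differed more. The GC content of the summit and 100 bp on either side averaged 48.3% ± 9.75 (SD over 2147 regions) in members, 50.9% ± 10.4 in the other shared distal regions and 53.3% ± 10.3 in the rising ones. The mean difference between members and the other regions was −2.60 percentage points (95% interval −3.05 to −2.15). This interval treats regions as independent and does not cover differences between libraries. The difference was −3.16, −1.37 and −1.09 points within the lowest, middle and highest class of mean DMSO percentile, so that part of it went with the DMSO rank. Members made up 18.6% of shared distal regions with under 40% GC and 8.80% of those with 60% or more, and the rising regions made up 9.93% and 23.7% of the same classes. Mean GC was 49.5% in members with a gap from 10 to under 15 points, 46.5% in those with a gap from 30 to under 40 points and 47.3% in those with a gap of 40 or more. Across the 16287 shared distal regions, GC content and percentile had Spearman's rho of −0.24 and −0.15 in DMSO replicates 1 and 2 but 0.06 and −0.13 in I-BET151 replicates 1 and 2, within 1 set of regions per library. I-BET151 replicate 1, the shallowest library, thus stood apart in its relation to GC, and whether GC content acted on the ranks through library preparation was not tested.

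Short motifs were counted on both strands in the same window. GATA factors' AGATAA occurred in 18.3% of members (16.7 to 19.9%), in 16.1% of the other shared distal regions and in 12.9% of the rising ones. The same letters in reversed order, which were not checked against known sites, occurred in 10.1%, 8.20% and 7.38%, so another AT-rich string was also more frequent. The GATA excess was 2.02, −0.0864 and 1.89 points within the lowest, middle and highest class of mean DMSO percentile, and its sign turned with the library left out of the choice, as given below. Among members with a gap from 30 to under 40 points, 24.9% held the motif, and among those with a gap of 40 or more 17.4% did. The 3 GATA-bearing sequences printed above are thus examples of a common letter string, not of a feature of all members.

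The motifs of CTCF, the GC box and ETS factors were rarer in members. The CTCF consensus occurred in 1.72% of members (37 of 2147, 1.25 to 2.37%), in 3.40% of the other shared distal regions and in 6.58% of the rising ones. Its reversed letters were found in none of the members, which allows a share of up to 0.179% by the Wilson interval, and in 0.0212% of the others. The CTCF difference was −2.78, −1.23 and −0.493 points within the lowest, middle and highest class of mean DMSO percentile. GGGCGG, the GC box of SP and KLF factors, occurred in 9.36% of members, 14.8% of the others and 17.5% of the rising regions, and its reversed letters in 10.4%, 14.6% and 17.6%. CCGGAAG, a site of ETS factors, occurred in 1.35%, 2.52% and 3.18%. For the GC box, then, the reversed letters showed the same order as the motif, whereas the reversed letters of CTCF were nearly absent everywhere.

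The other motifs differed by less than the GATA motif. GGGTGTG, a site of KLF factors, was more frequent in members (6.94%) than in the other shared distal regions (5.21%), although its excess was −1.77 points in the lowest class of mean DMSO percentile. The FOXA motif, that of forkhead factors of the endoderm, occurred in 13.9% of members and 12.5% of the others, and TAATCC, a site of OTX factors, in 6.57% and 5.21%, with reversed letters of the latter in 6.61% and 6.29%. TGANTCA, the AP-1 site, occurred in 16.0% of members (14.5 to 17.6%), 15.4% of the others and 11.4% of the rising regions. The TEAD site GGAATG occurred in 17.4%, 16.8% and 16.4%. The HNF4 site printed above occurred in 1.82%, 1.24% and 0.803%, and the NR5A site in 2.28%, 1.64% and 1.26%, where the interval of the difference between members and others included 0 for both. ATTGAT followed by C or T, the site of ONECUT factors (HNF6), occurred in 6.57% of members and 7.75% of the others. In all, 26 motifs were counted, a match says only that the letters are present, and for AP-1 and TEAD the share in the other regions lay within the interval of the members.

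The sequence features leaned on I-BET151 replicate 1, whose rank had a different relation to GC content. Chosen without I-BET151 replicate 2, members exceeded the other shared distal regions by 5.41 points in the GATA share and by 7.39 points in the AP-1 share (22.4% against 15%), with GC differing by −4.45 points and the GC box by −9.31 points. Chosen without I-BET151 replicate 1, the same differences were −0.204, −1.12, −1.29 and −2.16 points. The lower GC content and the lower share of GC boxes thus kept their direction in both choices, and the GATA and AP-1 differences did not. The KLF excess of 1.73 points was 0.368 points without DMSO replicate 1 and 0.422 points without DMSO replicate 2. The ETS difference of −1.17 points was −0.396 points without DMSO replicate 1, −0.462 without I-BET151 replicate 1 and −1.77 without I-BET151 replicate 2, and the CTCF difference of −1.68 points was −3.15 without I-BET151 replicate 2.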

How the data were processed

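ATAC-seq peak lists of 2 DMSO and 2 I-BET151 libraries were used, with groups from the sample labels and replicate numbers from their titles. The authors aligned reads to hg38 with Bowtie2 2.2.5 and called peaks in each library on its own with MACS2 2.1.2. The shortest peak was 200 bp in both replicates 1 but 233 and 256 bp in DMSO and I-BET151 replicates 2. The study's methods give an extension of 200 bp for all. Fold enrichments and pileups may therefore come from unlike calling settings, and the part of this in the ranks was not tested. Each deposited list gives fold enrichment at the summit, −log10 p-values, −log10 q-values and a display score that was not used. Fold enrichment is a ratio to local background with 1 read added to both terms, so it also depends on depth. The lists reach a q-value of 0.05. All of these are values the authors computed within 1 library, so levels were compared only as ranks or after scaling to estimated reads.

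Peaks on the numbered and sex chromosomes were merged and ranked in Python 3.11.15 (pandas 2.3.3, numpy 2.4.6, scipy 1.17.1), with genes of GENCODE release 44 (20033 protein-coding starts). Pileup in whole reads was solved from fold enrichment and p-value, to within 0.001 of −log10 p in 100% of peaks of each list. Reads per library followed from the lowest local background and the shortest peak of each list, with the MACS2 default genome size (2700000000 bp). Pileups of 9 to 65 reads, as in most named members, carry counting errors that the percentiles do not show. Second placements came from minimap2 2.31-r1302. Merging, pileups, the rule and the motif search were tested on simulated data. Intervals of shares are 95% Wilson intervals, and those of differences are 95% normal intervals over regions. Both kinds treat regions as independent and do not cover differences between libraries.

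Members, gene lists, motifs and comparisons were chosen with earlier results of these data known, and the contrast that chose the members was not tested. Genes named were those nearest to the 12 largest gaps, the 10 genes with the most members, list genes with a member, and 3 regions on either side of the threshold. Genes of clusters, of printed sequences and of further large gaps outside the repeated class were added after their values were seen. Same-numbered replicates did not deviate together (correlation −0.17). Alternatives covered the measure ranked, peak thresholds, overlap, gap, distance, sequence window, each library left out and a replicate block. Some members and sequences are not reported here.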

Additional observations from a re-analysis of the deposited data

How the results depend on the processing

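With 2 libraries per group and no test on the contrast that chose the members, alternatives show how far the set depends on its rule. The set held 2016 regions when ranked by −log10 p (63.9% of the 2147 members were among them) and 1968 when ranked by pileup (35.7%). It held 827 regions with peaks of −log10 p of at least 10, 1272 with an equal number of peaks per list and 1017 with a gap of 20 points, and between 3273 and 5431 with 1 library left out. A replicate block, which asked for a fall of at least 10 points within each same-numbered pair, gave 2604 regions and a GC difference of −2.49 points, and the crossed pairing gave 3062 regions. Same-numbered replicates did not deviate together (correlation −0.17), but that does not exclude a difference between replicate numbers. The shortest peak was 200 bp in both lists of replicates 1, against 233 and 256 bp in DMSO and I-BET151 replicates 2. In DMSO and I-BET151 replicates 1, 11.9 and 11.6% of members held 2 or more peaks, against 2.47 and 0.699% in replicates 2.

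The share of regions chosen in pair 1 that fell in pair 2 was 40.2% with peaks of −log10 p of at least 10 (24.9% of all shared distal regions), 40.1% with equal numbers of peaks (24.9%), 48.7% and 29.7% for falls of at least 5 and 20 points (34.2% and 15.4%) and 59.5% with crossed pairs (33.8%). In the other direction it was 57.8% when ranked by −log10 p (37.6%), 63.3% with peaks of −log10 p of at least 10 (39.1%), 64.9% and 50.8% for falls of at least 5 and 20 points (45.6% and 26.4%) and 55.5% with crossed pairs (31.6%).

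The GC difference was −2.14 points when ranked by −log10 p, −1.83 with peaks of −log10 p of at least 10, −1.84 with equal numbers of peaks and −3.42 with a gap of 20. It was −3.16, −1.37 and −1.09 within the lowest, middle and highest class of mean DMSO percentile, −2.05 against regions that neither fell nor rose (a comparison chosen after seeing the data), and between −4.45 and −1.29 with 1 library left out, so it kept its sign in each of the 20 alternatives run.

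Among differences whose interval left out 0, signs turned for the KLF difference in the lowest class (−1.77 points), for the GATA difference in the middle class (−0.0864) and without I-BET151 replicate 1 (−0.204; range with 1 library left out −0.204 to 5.41), and for the HNF6 difference without DMSO replicate 2 (0.266; range −1.03 to 0.266). The AP-1 and TEAD differences, whose intervals included 0, also took both signs (AP-1 from −4.1 to 7.39, TEAD from −1.66 to 2.84). The causes were not tested. A median of 16 reads at the members' summits limits the precision of the ranks in I-BET151 replicate 1, the shallowest library.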
